A study of Homo sapiens and Mus musculus with 33 samples.

Results

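In HCT116 cells, 163 genes had more RNA with MS275 than with DMSO in each of 4 same-numbered pairs of RNA-seq libraries. They were chosen from the deposited table of read counts by a fixed rule: a mean of at least 1 CPM (read counts scaled in the usual way by the total of the library) over the 8 libraries, and a log2 ratio of MS275 to DMSO, after adding 0.5 CPM to both, of at least 0.7 in every pair. Of 35805 genes in the table, 13213 were past the 1 CPM floor, so the rule took 1.23% of them. Under the mirror rule for lower RNA with MS275, 13 genes were found. PAG1, NCAM1, AMIGO2 and EFR3B stand near the head of the 163 genes, which are called the rising genes here after the rule that chose them. As the rule used the RNA ratios, the RNA values of these genes are given as a description. Calls at these genes from a fit over all genes are counted further below, with nothing read from them, since they use the same contrast.

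HCT116 is an established line of human colorectal carcinoma cells. It was grown with 5 µM MS275 or with the same amount of its solvent DMSO for 18 h. RNA-seq was done on 4 libraries for each treatment, ChIP-seq for crotonylated (H3K18cr) and acetylated (H3K18ac) lysine 18 of histone H3 on 3 libraries for each mark and treatment, and 1 library of input chromatin was sequenced for each treatment. The series holds 33 libraries, and the others are from epithelium of the colon of C57BL/6 mice (3 of RNA, 2 of H3K18cr with 2 inputs, 3 of H3K4me3 with 1 input). All HCT116 data come from 1 cell line. The methods call the RNA libraries biological replicates. For ChIP on these cells they speak of 2 biological replicates, with triplicate qPCR runs, while the labels give 3 libraries, and which of these came from separate cultures is not stated. Their p-values therefore measure the spread between libraries, which may be technical. In bulk RNA, more cells that express a gene and more RNA per cell cannot be told apart.

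MS275 (entinostat) inhibits the class I histone deacetylases, the enzymes HDAC1, HDAC2 and HDAC3 that work in corepressor complexes. These enzymes take acetyl groups off histone lysines, and they also remove crotonyl groups. Both modifications of H3K18 lie mainly at active promoters and enhancers, and genes of other lineages, neuronal ones among them, are well known to respond to inhibitors of this class in epithelial tumour cells.

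The promoter letters of 4 rising genes are shown because their start regions are followed in both marks below. AMIGO2 and EFR3B are leading members, H3K18ac was higher with MS275 at the start of WNT7A, and both marks were lower at the start of SAT1. Each line gives the 250 bases before the start of the gene in RefSeq (GRCh38.p14), written 5′ to 3′ on the strand of the gene, with the letters GGGCGG of a GC box, or CCGCCC where it lies on the other strand, in capitals. AMIGO2 is at chr12:47079952-47080201 on the minus strand, EFR3B at chr2:25041826-25042075 on the plus strand, WNT7A at chr3:13880072-13880321 on the minus strand and SAT1 at chrX:23782923-23783172 on the plus strand.
AMIGO2: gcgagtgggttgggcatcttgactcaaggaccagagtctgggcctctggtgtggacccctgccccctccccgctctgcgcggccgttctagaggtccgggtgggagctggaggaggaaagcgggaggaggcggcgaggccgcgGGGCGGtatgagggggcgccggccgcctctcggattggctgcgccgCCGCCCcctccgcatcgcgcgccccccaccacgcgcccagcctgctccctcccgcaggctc
EFR3B: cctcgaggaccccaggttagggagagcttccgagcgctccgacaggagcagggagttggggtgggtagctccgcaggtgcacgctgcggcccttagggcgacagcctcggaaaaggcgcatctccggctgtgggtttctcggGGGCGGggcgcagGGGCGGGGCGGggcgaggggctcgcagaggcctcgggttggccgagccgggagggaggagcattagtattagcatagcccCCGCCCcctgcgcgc
WNT7A: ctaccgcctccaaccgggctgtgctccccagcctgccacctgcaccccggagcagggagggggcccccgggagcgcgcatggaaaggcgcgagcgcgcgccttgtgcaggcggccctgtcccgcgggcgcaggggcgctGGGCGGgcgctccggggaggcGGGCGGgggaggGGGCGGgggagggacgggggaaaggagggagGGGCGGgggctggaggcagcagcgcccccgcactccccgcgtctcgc
SAT1: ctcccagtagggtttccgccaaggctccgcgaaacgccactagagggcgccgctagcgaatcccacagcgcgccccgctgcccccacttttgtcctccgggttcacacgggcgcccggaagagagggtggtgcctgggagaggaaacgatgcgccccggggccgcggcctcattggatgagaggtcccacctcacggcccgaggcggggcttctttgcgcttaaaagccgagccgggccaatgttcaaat

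The GC box was found 2 times before AMIGO2, 4 times before EFR3B and 4 times before WNT7A, and 0 times before SAT1, which holds a CCAAT box instead. RefSeq promoters were matched by symbol for 124 of the 163 rising genes and for 10078 genes past the floor. Searched on both strands, the GC box was present in 89 promoters of rising genes (71.8%), against 69.5% for the genes past the floor and 42.6% for all 35114 promoters. The letters CCAAT, which read ATTGG on the other strand, were in 36.3%, against 35.4% and 32.0%, and TATAAA, read as TTTATA on the other strand, in 8.87%, against 4.99% and 10.7%. The palindrome CACGTG was in 4.03%, against 8.95% and 6.35%, TGANTCA in 2.42%, against 3.48% and 6.57%, and TGACG, read as CGTCA on the other strand, in 16.1%, against 30.3% and 21.2%. Most pairs of these motifs can overlap at their ends, such as CACGTG with TGACG, but TGANTCA and TGACG cannot share letters. The median share of G and C was 68.8% in promoters of rising genes, 65.6% in those of the genes past the floor and 58% in all promoters. These shares are a description of letters in 1 window for each gene.

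The RNA libraries held 35608533 to 53415604 counts. DMSO replicate 3 stood apart from the others at low counts: 23 rising genes were at 0 there, against 4 in DMSO replicate 1, 3 in DMSO replicate 2 and 0 in each of the other 5 libraries. Over the 2119 genes past the floor with a mean under 5 CPM, 5.57% were at 0 in DMSO replicate 3, and at most 1.09% in any other library. The rising genes had their largest ratio in pair 3 in 68 cases and in pair 4 in 10. What part this library had in the choice of genes was not tested, but without pair 3 the same rule took 254 genes, and the median fold of the 163 genes over the other 3 pairs was 2.42, against 2.53 over all 4. The epithelial markers (EPCAM, CDH1, keratins and claudins) were at or above 1 CPM for 8 of 8 genes and summed to 4067 to 5570 CPM with DMSO and 5157 to 6084 with MS275. Summed neuronal markers were 51.8 to 132.5 and 69.8 to 135.3 CPM, with GAD2 at 0 in both groups, stromal markers 5.95 to 8.37 and 10.9 to 17.9 CPM, with LUM at 0, and immune markers 6.32 to 7.42 and 4.93 to 12.2 CPM, with CD14 at 0. At or above 1 CPM were 2 of 6 neuronal markers with DMSO and 3 with MS275. Of the stromal and the immune markers it was 1 of 6 in each group. SYT1 alone averaged 80.4 CPM with DMSO and 92.3 CPM with MS275. None of these markers (0) is a rising gene, and their part in the results was not tested.

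The rising genes took up few reads. Their median was 3.64 CPM with DMSO and 9.48 CPM with MS275, and 27 of them averaged below 1 CPM with DMSO. Over all 8 libraries the median was 6.31 CPM, against 28.3 CPM for the genes past the floor, and 64 (39.3%) averaged below 5 CPM, against 16.0%. CPM is not divided by transcript length, so these values compare numbers of reads and not levels of RNA between genes. Together the 163 genes held 0.0844% to 0.184% of all counts in the DMSO libraries and 0.223% to 0.385% in the MS275 libraries, so the ranges over libraries did not overlap. The ratio of the group means had a median of 2.53 and ran from 1.74 (EPHB3) to 15.5 (CEND1), and 31 genes were at 4-fold or more. Without pair 4 the median was 2.68 and the highest ratio 213.0, so the top of this range depends on the pairs used. In 99 genes (60.7%) all 4 MS275 libraries were above all 4 DMSO libraries, which was so in 2.95% of the genes past the floor. Without pair 3, this count was 144 of 163 over the remaining 6 libraries. The rule used these libraries, so nothing is read from the difference.

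PAG1 had the highest smallest ratio over the pairs. It encodes a transmembrane adaptor of lipid rafts that brings the kinase CSK to src-family kinases, and lies on chromosome 8 from 80967810 to 81112068 (GRCh38, minus strand). PAG1 was at 2.41, 2.34, 1.77 and 3.16 CPM in DMSO replicates 1 to 4 and at 15.4, 18.5, 11.04 and 19.8 CPM in MS275 replicates 1 to 4. The groups did not overlap, the fold of means was 6.70, and the log2 ratios of the pairs lay between 2.35 and 2.74. FYN, a src-family kinase, was at 8.31, 8.76, 7.93 and 19.0 CPM with DMSO and at 23.4, 27.6, 22.2 and 35.6 CPM with MS275. Its groups did not overlap either, with DMSO replicate 4 close below the lowest MS275 library.

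Cell-surface adhesion molecules formed a group of 8 rising genes, with folds of means from 2.70 (TENM3) to 9.57 (PCDH19). NCAM1, the neural cell adhesion molecule (chromosome 11, 112961247 to 113278436, plus strand), was at 0.846, 1.43, 0.205 and 3.65 CPM with DMSO and at 5.82, 14.2, 5.79 and 14.2 CPM with MS275. All 4 MS275 libraries were higher than the highest DMSO library, and in both groups numbers 2 and 4 were the highest. AMIGO2, a leucine-rich repeat adhesion protein (chromosome 12, 47075707 to 47079951, minus strand), was at 1.02, 1.82, 0 and 1.48 CPM with DMSO and at 5.78, 8.29, 3.40 and 5.60 CPM with MS275. CNTNAP2, a neurexin-related protein that gathers potassium channels on axons, was at 3.61, 7.05, 1.54 and 5.56 CPM with DMSO and at 12.9, 34.9, 12.3 and 26.2 CPM with MS275. In these 3 genes DMSO replicate 3 was the lowest library, and the groups did not overlap. FAT4 reached 0 in DMSO replicate 3 and 3.91 CPM in DMSO replicate 4, above the 2.02 CPM of MS275 replicate 3, so its groups overlapped. NRXN2, a presynaptic neurexin, was lower in read number, at 0 to 1.13 CPM with DMSO and 1.48 to 2.84 CPM with MS275.

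Contact and guidance signals gave 7 rising genes: EFNA5, EFNB2, EPHB3, SEMA3C, SEMA6A, PLXNA2 and DRAXIN. Ephrins bind Eph receptors on neighbouring cells, semaphorins bind plexins, and DRAXIN is a secreted axon repellent. EFNA5 was at 0.512, 0.303, 0.435 and 0.356 CPM with DMSO and at 3.32, 3.31, 3.26 and 2.97 CPM with MS275. The libraries of each group were even, and its fold of means was 8.003. EFNB2 drew more reads, at 41.8, 44.3, 26.6 and 48.5 CPM with DMSO and at 79.7, 77.2, 49.6 and 88.4 CPM with MS275, with replicate 3 the lowest in both groups and little distance between them. SEMA3C was at 7.75, 13.1, 0.435 and 11.6 CPM with DMSO and at 26.2, 53.5, 10.3 and 42.5 CPM with MS275, and its groups overlapped because MS275 replicate 3 was below 2 of the DMSO libraries. Other members of these families were not all alike: among the 15 ephrins and Eph receptors past the floor, 3 were rising genes and the median log2 ratio was 0.37, among 16 semaphorins 2 were and the median was 0.24, among 7 plexins 1 was and the median was 0.12, and among 12 WNT ligands 2 were and the median was 0.97. Over all genes past the floor 1.23% were rising genes and the median log2 ratio was 0.01. These families were picked after the values were seen.

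Proteins of the neuronal cytoskeleton were also present. MAP2, a microtubule protein of dendrites, was at 4.39, 12.9, 5.81 and 18.2 CPM with DMSO and at 22.0, 47.1, 18.5 and 55.7 CPM with MS275. The groups stood apart by a narrow margin, between DMSO replicate 4 and MS275 replicate 3. KIF5C, a kinesin motor of axons, and NES, an intermediate filament protein of neural progenitors, had folds of 1.82 and 2.04, and in both genes the groups did not overlap. NES was at 29.8 to 34.1 CPM with DMSO and 54.7 to 73.9 CPM with MS275, and showed no low value in replicate 3. EFR3B, a palmitoylated protein that anchors phosphatidylinositol 4-kinase at the plasma membrane (chromosome 2, 25042130 to 25159137, plus strand), was at 1.72, 2.95, 0 and 1.03 CPM with DMSO and at 4.92, 12.1, 3.99 and 7.32 CPM with MS275. Its fold of means was 4.97 and its groups did not overlap. STX11, a syntaxin of immune granule release, was at 0.248 to 1.00 CPM and at 2.09 to 5.73 CPM.

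**Figure D1:**
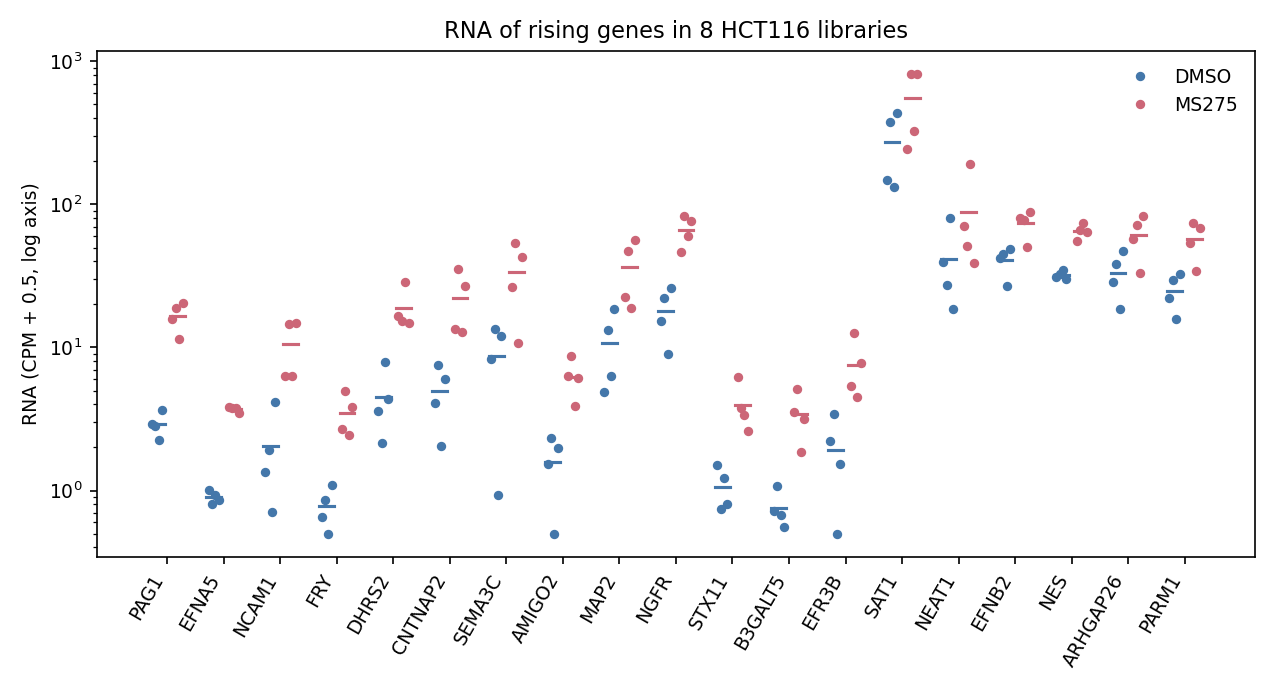
RNA of leading and read-rich rising genes in the 8 HCT116 libraries, as CPM plus 0.5 on a log axis. Points are libraries, in the order of replicates 1 to 4 from left to right within a group, and bars are group means. In PAG1 and EFNA5 the 4 MS275 libraries lie well above the 4 DMSO libraries, while in SAT1 (132.6 to 436.5 CPM with DMSO, 243.8 to 819.4 CPM with MS275) and NEAT1 the groups overlap.

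Receptors and signals of development made up another share. NGFR, the low-affinity receptor of nerve growth factor, was at 14.9, 21.6, 8.45 and 25.5 CPM with DMSO and at 46.2, 82.3, 59.7 and 76.6 CPM with MS275, with no overlap. WNT7A, a secreted WNT ligand, was at 0.935, 0.248, 0.589 and 1.05 CPM and at 2.36, 2.59, 2.05 and 2.19 CPM, also with no overlap and with a fold of 3.26. WNT7B, the Notch ligands DLL4 and DNER, the Notch target HEY1, the WNT inhibitor CXXC4 and the BMP antagonist CHRD were rising genes too. HEY1 had the highest fold of these 7, 7.35, from 0.379, 0.523, 0 and 0.543 CPM with DMSO to 2.89, 4.45, 1.66 and 1.62 CPM with MS275. Transcription factors counted 13, among them RUNX2, ETS1, MEF2C, NFATC4, BCL6 and the mineralocorticoid receptor NR3C2. Their median fold was 2.27, against 2.53 over all rising genes. RUNX2, a factor of bone formation, was at 1.00, 2.04, 0 and 1.91 CPM and at 5.42, 8.60, 3.20 and 5.89 CPM. Its groups did not overlap, whereas those of NR3C2 did, at 0 to 4.44 CPM and 3.06 to 10.3 CPM. Matrix genes were THBS1, CTGF, NOV, LTBP1 and SPP1, with folds from 2.32 to 3.98.

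Enzymes and transporters held both the most read-rich rising gene and some of the largest folds. SAT1, the acetyltransferase that starts polyamine breakdown (chromosome X, 23783158 to 23786226, plus strand), was at 148.0, 378.1, 132.6 and 436.5 CPM with DMSO and at 243.8, 813.2, 328.2 and 819.4 CPM with MS275. In both groups numbers 2 and 4 were above numbers 1 and 3, and the groups overlapped although each pair had a ratio of at least 0.72. DHRS2, a short-chain dehydrogenase, was at 3.10, 1.65, 7.40 and 3.84 CPM and at 16.2, 14.9, 28.3 and 14.4 CPM. B3GALT5, a galactosyltransferase that builds glycan chains of epithelia, was at 0.0562 to 0.578 CPM and at 1.35 to 4.603 CPM, a fold of 11.3. Neither gene had overlapping groups. FRY, a large protein of spindle and cell polarity, had a like fold, 10.7, from 0 to 0.599 CPM to 1.94 to 4.50 CPM. NEAT1, the long RNA on which paraspeckles form and the only rising gene annotated as a long non-coding RNA among the 162 found in GENCODE, was at 38.8, 26.6, 80.3 and 18.0 CPM and at 70.5, 51.0, 190.3 and 38.4 CPM. Here replicate 3 was the highest library in each group, unlike in NCAM1 or AMIGO2, where it was the lowest. PARM1 and ARHGAP26 were also among the 8 genes with the most reads, at folds of 2.32 and 1.86.

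In all, 76 rising genes were given one of 11 roles from general knowledge after the list was known. The roles were not counted over the genes past the floor, so no role is read as more common among rising genes. The other 87 rising genes had folds from 1.82 (MRC2) to 15.5 (CEND1), with a median of 2.46. CEND1, named for cell cycle exit and neuronal differentiation, was at 0.178, 0, 0.589 and 0.318 CPM with DMSO and at 4.06, 2.03, 9.16 and 1.55 CPM with MS275. Just inside the threshold lay DMBX1, KIF5C and EPHB3, whose smallest log2 ratios were 0.710, 0.702 and 0.702. Just outside lay HSD11B1L and TMEFF1 at 0.698, UBAP1L at 0.690 and LRAT at 0.689. The smallest ratio was below 1 in 106 rising genes, between 1 and 1.5 in 47 and at or above 1.5 in 10.

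**Figure D2:**
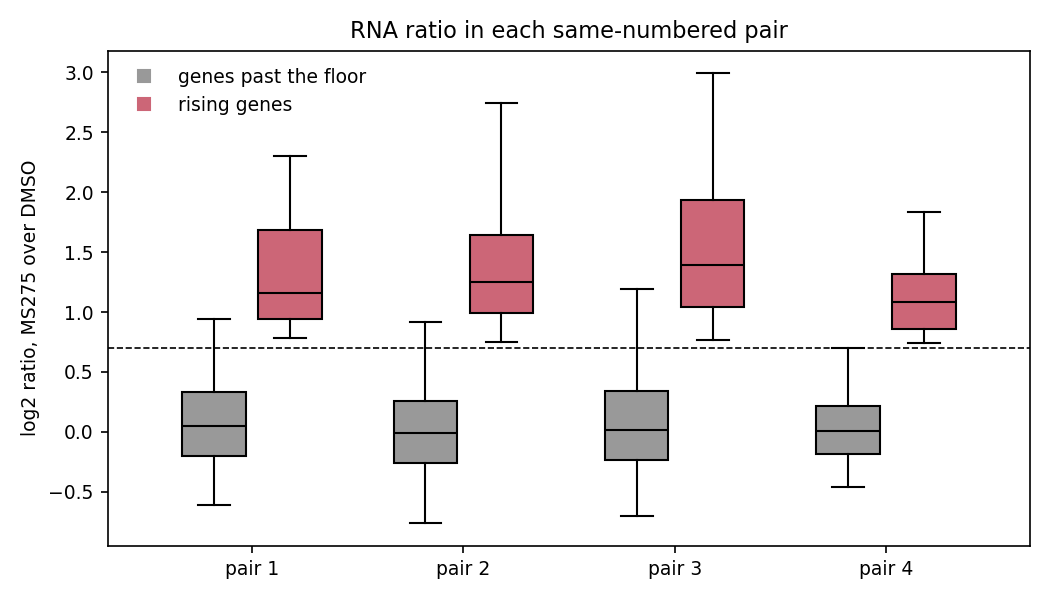
Log2 ratio of MS275 to DMSO in each same-numbered pair for the 163 rising genes and the 13213 genes past the floor. Boxes span the quartiles with the median as a line, whiskers reach the 5th and 95th percentiles, and the dashed line is the threshold of 0.7. The medians of the rising genes were 1.16, 1.25, 1.39 and 1.08 in pairs 1 to 4, and those of the genes past the floor lay between -0.01 and 0.05.

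The choice was repeated with each pair left out in turn, and the genes it gave were described in that pair. Genes chosen on 3 pairs numbered 211 without pair 1, 220 without pair 2, 254 without pair 3 and 238 without pair 4. In the pair left out, 98.6%, 95.9%, 90.2% and 97.5% of them were above 0, where 55.1%, 48.5%, 52.4% and 51.0% of all genes past the floor were. At or above 0.7 in that pair were 78.2%, 71.8%, 65.4% and 66.8%, against 9.26%, 8.13%, 11.7% and 5.00%. The median log2 ratio in the left-out pair was 1.03, 1.05, 1.02 and 0.85. Genes at or above 0.7 in the left-out pair numbered 165, 158, 166 and 159 and were nearly all among the 163 rising genes (163, 158, 163 and 159 of them), so these shares are not evidence apart from the list itself.

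Rising genes were longer than the genes past the floor on the median. Their median length in the deposited coordinates was 68665 bp, against 31398 bp for the genes past the floor, and 71 (43.6%) were longer than 100 kb, against 18.6%. GENCODE lists 161 of them as protein coding, and RP4-665J23.1 could not be matched. On chromosome 1 lay 25 of them (1.88% of the genes past the floor there), on chromosome 10 lay 11 (2.09%), and on chromosomes 16 and 19 lay 2 (0.309%) and 3 (0.311%).

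Fitted across all 14961 genes tested, the quasi-likelihood test of edgeR (Benjamini-Hochberg adjusted p) called 1 rising gene higher, PAG1 (log2 difference 2.72), which was 0.00668% of the genes tested, and 0% were called lower, with 987 genes at an unadjusted p under 0.05. With the replicate number as a block, 149 of the 163 rising genes were called higher, where 7.83% of all genes were called higher and 6.55% lower. DESeq2 without the block called 71 of them, with 112 genes higher and 28 lower in all. As the rule used the same contrast, these counts carry no weight beside the ratios themselves.

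Genes of 10 lists of related function show what moved around the rising genes. Of 127 list genes tested, edgeR without the block called PAG1 alone, and with the block 27 were called higher and 17 lower, where 7.83% of all genes tested were called higher and 6.55% lower with the block. These shares stand behind each count below. On the list of neuronal and synaptic genes, 20 of 40 were tested, and with the block 8 were called higher and 0 lower, with the rising genes NCAM1 and KIF5C among them. The median log2 difference over the list was 0.73, against 0.01 over all genes tested. VGF, a secreted neuropeptide precursor and not a rising gene, went from 52.6 ± 11.5 to 111 ± 21.2 CPM (SD, n = 4), a log2 difference of 1.07 with the block (edgeR, adjusted p = 0.00013). ENO2, the neuronal enolase, went from 52.5 ± 13.7 to 89.7 ± 21.2 CPM (edgeR with the block, 0.77, adjusted p = 0.0026). MAPT, the microtubule protein tau, and L1CAM, an adhesion molecule of axons, were called at 0.55 and 0.66. NRXN2 was a rising gene but was not called with the block.

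Adhesion molecules of the immunoglobulin and leucine-rich repeat families gave 5 higher and 0 lower of 12 tested with the block, which were NCAM1, AMIGO2, L1CAM, MCAM and F11R. In the plasma membrane PI4K complex, 4 of 8 were called higher with the block and 0 lower: EFR3B at a log2 difference of 2.77, and EFR3A, FAM126A and the kinase PI4KA itself at 0.40 to 0.41. Src-family kinases and raft adaptors gave 2 higher, PAG1 and FYN, and 1 lower, CSK, the kinase that PAG1 recruits, at -0.27 (edgeR with the block, adjusted p = 0.036). Metallothionein and redox genes gave 2 higher (MT2A and MT1X) and 1 lower of 9, variant and polyadenylated histone genes 2 higher (H1F0 and H1FX) and 0 lower of 11, and arrest and p53 genes 3 higher, CDKN1A among them, and 3 lower of 19. For class I HDACs and their corepressors it was 1 higher and 1 lower of 13, and for the repressor REST and its partners 0 of 6. DNA replication and mitosis genes moved mostly the other way, with 11 lower and 2 higher of 20 and a median of -0.27. Without the block, edgeR with its filter called no gene of these lists but PAG1, edgeR with no filter on low counts called 2 higher and DESeq2 6, and 8 of the 127 were rising genes, which the rule had chosen on this contrast.

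Peaks of H3K18cr and H3K18ac were deposited as 1 list of 40266 regions, with log2 scaled read numbers in every library. In or within 2 kb of the gene, 155 of the 163 rising genes (95.1%) had a peak, against 94.2% of the genes past the floor, and these peaks numbered 533. The 8 genes with none were GPRIN3, PRSS35, CEND1, NCAM1, ATP2C2, TEX19, PCDH19 and ZCCHC12, so NCAM1 had no listed region over its 317190 bp. A peak within 1 kb of the start was listed for 126 rising genes (77.3%), against 85.5%, and 29 had peaks in the gene or its flanks but not at the start. RUNX2 had 21 peaks, ARHGAP26 20, EFNA5 18 and SYTL2 16. Of the 533 peaks, 111 (20.8%) were also in or near another gene. With DMSO, the start peaks of rising genes were less enriched. The mean of the DMSO libraries over the DMSO input had a median of 2.203 for H3K18cr and 2.00 for H3K18ac. Over all start peaks of genes past the floor it was 3.29 and 3.51. At or above 4 were 7.58% and 5.30% of the start peaks of rising genes, against 28.5% and 38.3%. With MS275 the medians over input were 2.06 and 1.95, against 2.31 and 2.34, so the gap was smaller then. The input rests on 1 library for each treatment.

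At the starts, scaled reads of both marks moved little on the median at rising genes, while at other genes they were mostly lower with MS275. The 132 start peaks of rising genes had a median log2 difference of MS275 minus DMSO of -0.07 for H3K18cr, and limma with Benjamini-Hochberg adjustment over all peaks called 0 higher and 9 lower (6.82%). The 9771 start peaks of other genes past the floor had a median of -0.60, with 3 higher and 6180 lower (63.3%). For H3K18ac, 131 start peaks of rising genes had a median of -0.07, with 2 higher and 5 lower (3.82%), and 9773 of other genes had -0.67, with 1 higher and 4892 lower (50.1%). Over all peaks tested, 0.232% were called higher and 23% lower for H3K18cr, and 0.264% higher and 16.3% lower for H3K18ac. The difference between the 2 sets of genes was described and not tested. Scaled reads give the share of a library in a region and not the amount of a mark. By western blot and ChIP-qPCR the paper reports more H3K18cr with MS275. It proposes that an increase outside the starts could explain relative falls there. It also reports that peaks gaining a mark were disproportionately linked to genes with more RNA. How these bear on the rising genes was not tested.

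The scale of the ChIP libraries changes these directions. The authors scaled each library to the largest one, and with that scale the median log2 difference over all peaks was -0.20 for H3K18cr and -0.19 for H3K18ac. With TMM scaling over the peaks it was 0.04 and 0.06, and the start peaks of rising genes then had medians of 0.17 and 0.18, against -0.36 and -0.42 for other genes. The calls at rising genes, starts and other regions together, turned from 4 higher and 28 lower of 527 to 14 higher and 9 lower for H3K18cr (1.78% higher and 11.1% lower over all peaks), and from 6 higher and 11 lower of 530 to 54 higher and 10 lower for H3K18ac (4.49% and 16.5%). The direction at rising genes thus changed with the scaling. As the scaling moves all peaks by about the same amount, the order of the medians of rising and other genes could not change with it. On the authors' scale, groups did not overlap with MS275 above at 20 of the 533 peaks for H3K18cr (3.75%) and 32 for H3K18ac (6.00%), where 3.18% and 3.34% of all peaks did so. With DMSO above it was 56 (10.51%) and 34 (6.38%), where 29.8% and 23% of all peaks did so.

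**Figure D3:**
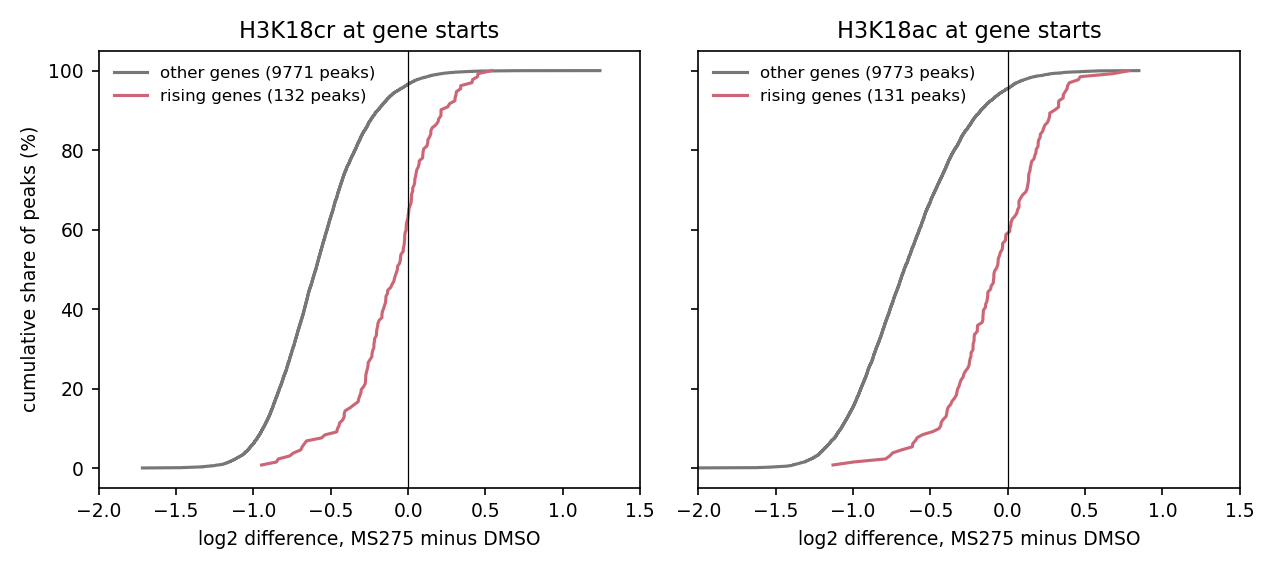
Cumulative share of start peaks by the log2 difference of MS275 minus DMSO on the authors' scale, for H3K18cr (left) and H3K18ac (right), in rising genes and in other genes past the floor. The medians are -0.07 and -0.07 for rising genes and -0.60 and -0.67 for other genes.

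As the 2 sets differed in enrichment with DMSO, they were also set side by side within classes of it, chosen after the data were seen. Among start peaks under 2 times input with DMSO, the median H3K18cr difference was 0.02 over 51 peaks of rising genes and -0.21 over 773 of other genes. From 2 to under 4 it was -0.19 over 71 and -0.54 over 6184, and at 4 and over -0.43 over 10 and -0.81 over 2814. For H3K18ac the medians were 0.12, -0.18 and -0.60 for 66, 58 and 7 peaks of rising genes, and -0.12, -0.54 and -0.92 for other genes. Within each class the median of the rising genes was the higher one. The classes and the differences share the DMSO libraries, so a fall of the medians from class to class is in part fixed by how the classes were made, and nothing is read from it. What else differs between the sets within a class was not tested.

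The values by library were as follows. Median scaled reads in start peaks of rising genes were 91.5, 90.8 and 76.6 in the H3K18cr libraries with DMSO and 81.0, 83.6 and 80.7 with MS275, while over all start peaks they were 175, 165.2 and 143.9 with DMSO and 103.5, 102.0 and 112.2 with MS275. The groups overlapped in the first case and not in the second. For H3K18ac, rising genes had medians of 66.2, 70.9 and 88.8 with DMSO and 88.9, 65.2 and 69.7 with MS275, and all start peaks 141.5, 167.4 and 225.3 and then 131.1, 98.98 and 100.6. Of all reads in peaks, the regions at rising genes held 0.970% to 0.984% with DMSO and 1.11% to 1.19% with MS275 for H3K18cr, and 0.855% to 0.952% and 1.10% to 1.13% for H3K18ac. Both shares were higher with MS275 without overlap. They depend on the reads in all other peaks, which were fewer with MS275 in the H3K18cr libraries, so they restate the differences above and are no separate result. In the 2 inputs the shares were 1.23% and 1.26%. Between same-numbered libraries the median difference at starts of rising genes was -0.23, -0.13 and 0.07 for H3K18cr, and 0.36, -0.20 and -0.40 for H3K18ac, so its sign differed between numbers. Over all start peaks it was -0.75, -0.69 and -0.35 for H3K18cr and -0.09, -0.75 and -1.14 for H3K18ac, below that of the rising genes in each number.

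Single starts of the leading genes were not called. The AMIGO2 start peak (chromosome 12, 47078851 to 47082150) had 172, 144.7 and 106.7 scaled H3K18cr reads with DMSO and 165.3, 167.1 and 130.5 with MS275, over 45.6 and 51.0 in the inputs, a log2 difference of 0.15 ± 0.18 (SE, limma, adjusted p = 0.67). For H3K18ac it had 87.2, 129.7 and 130 reads and then 155.8, 110.5 and 96.4 (0.06, adjusted p = 0.93). The groups overlapped in both marks. The EFR3B start peak (chromosome 2, 25042051 to 25043400) had 46, 30.0 and 38.7 H3K18cr reads with DMSO and 56.2, 53.8 and 44.9 with MS275 (0.45 ± 0.23, limma, adjusted p = 0.17), and only with TMM scaling was it called higher (0.69, limma, adjusted p = 0.045). Its H3K18ac reads were 35.1, 46.8 and 52.8 and then 57.1, 39.6 and 33.5 (-0.06, limma, adjusted p = 0.93). PAG1 had a broad region of 10500 bp over its start at 1.19 times input for H3K18cr with DMSO, so hardly above it, and differences of 0.07 and -0.01 (limma, adjusted p = 0.84 and 0.99). EFNA5, 8.003-fold higher in RNA, had a start peak at 4.07 times input with differences of 0.06 and -0.03 (limma, adjusted p = 0.89 and 0.96).

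On the authors' scale, 4 of 527 peaks at rising genes (0.759%) were called higher for H3K18cr, against 0.232% of all peaks, and 6 of 530 (1.13%) for H3K18ac, against 0.264%. With TMM scaling these were 14 (2.66%) and 54 (10.2%). Each of the calls below was lost when at least 1 replicate number was left out. On the authors' scale they concerned 4 genes for H3K18cr (DRAXIN, ILDR2, EFNA5 and ARID5B) and 5 for H3K18ac (ILDR2, SGPP2, WNT7A, NR3C2 and SCUBE1). At the start of WNT7A (chromosome 3, 13878001 to 13880850) H3K18ac reads were 49.8, 49.8 and 41.2 with DMSO and 106.5, 70.9 and 69.2 with MS275, over 40.4 and 45.3 in the inputs. The groups did not overlap and the log2 difference was 0.78 ± 0.25 (limma, adjusted p = 0.014). The call was lost without any one replicate number and also with a replicate block. A second region of WNT7A was called at 0.76. H3K18cr at WNT7A was not called (0.34, limma, adjusted p = 0.39). In SGPP2, a sphingosine phosphate phosphatase, H3K18ac at the start went from 37.4, 37.7 and 29.6 reads to 55.8, 54.4 and 56.6 (0.68 ± 0.25, limma, adjusted p = 0.045). Within DRAXIN, 16.8 kb from its start, H3K18cr went from 72, 60.1 and 55.7 to 88.9, 87.8 and 96.8 (0.55 ± 0.19, limma, adjusted p = 0.035), with no overlap, and this call was lost under DESeq2 and without any one number. A region inside EFNA5, 128.2 kb from the start, had 29, 42.3 and 29.4 H3K18cr reads and then 51.7, 48.2 and 64.5 (0.72 ± 0.23, limma, adjusted p = 0.022), and was called without replicate 2 but not without replicate 1 or replicate 3. NR3C2, ILDR2, ARID5B and SCUBE1 were called in regions of few reads, with at most 40.7 in any library of the mark called.

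With fewer calls than the naming rule asks for, regions with at least 50 reads on average whose groups did not overlap were named as well. For H3K18cr these were the starts of NCMAP (0.54), OLFML2A (0.26) and HMCN1 (0.21) and a region inside PMEPA1 (0.29), with limma adjusted p from 0.069 to 0.54. For H3K18ac they were 2 regions inside RUNX2 (0.57 and 0.42), 1 inside PAG1, 58.7 kb from its start (0.50), and the DRAXIN region (0.41), with limma adjusted p from 0.1 to 0.3. In each of them all 3 MS275 libraries were above all 3 DMSO libraries, and with all libraries and the authors' scale none passed the test. With TMM scaling the regions at NCMAP, PMEPA1, RUNX2 (both), PAG1 and DRAXIN were called higher, with limma adjusted p from 0.0011 to 0.033, and PMEPA1 was also called without replicate 3.

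Lower scaled reads of the marks at genes with more RNA were also found. SAT1 had 180, 163.8 and 244.4 H3K18cr reads at its start (chromosome X, 23780551 to 23784300) with DMSO and 85.5, 92.1 and 127.7 with MS275, over 33.9 and 29.7 in the inputs, a log2 difference of -0.95 ± 0.19 (limma, adjusted p = 0.00039). For H3K18ac the reads were 164.1, 233.8 and 284.5 and then 113, 89.1 and 103.7 (-1.13 ± 0.25, limma, adjusted p = 0.00043). The groups did not overlap in either mark while the RNA ratio was at least 0.72 in each pair. The H3K18cr call was kept in all alternatives run, and that of H3K18ac was lost without replicate 2 and with a replicate block. NEAT1 had the most reads of all, with 1680.0, 1606.5 and 1718.5 H3K18cr reads over its start with DMSO and 814.3, 822.8 and 1178.4 with MS275 (-0.85 ± 0.15, limma, adjusted p = 0.00017), and H3K18ac fell by 0.99 (limma, adjusted p = 0.00072). FAM69A, CRYM and HSPA2 were called lower in H3K18cr, with differences of -0.84, -0.77 and -0.87, and regions in FAM69A, in MEF2C and at PMEL in H3K18ac, with differences of -1.04, -0.92 and -0.79. Regions called lower lay at 25 rising genes for H3K18cr, at 10 for H3K18ac and at 9 for both marks. They were 28 of 527 peaks (5.31%) for H3K18cr, against 23% of all peaks, and 11 of 530 (2.08%) for H3K18ac, against 16.3%. The H3K18ac calls at NEAT1, FAM69A, MEF2C and PMEL were each lost without replicate 2, without replicate 3 and with a replicate block. Among the H3K18cr calls, CRYM was lost with TMM scaling and without replicate 1, and HSPA2 without replicate 2. Without 1 replicate number, the count of lower H3K18cr peaks ran from 4 to 83.

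**Figure D4:**
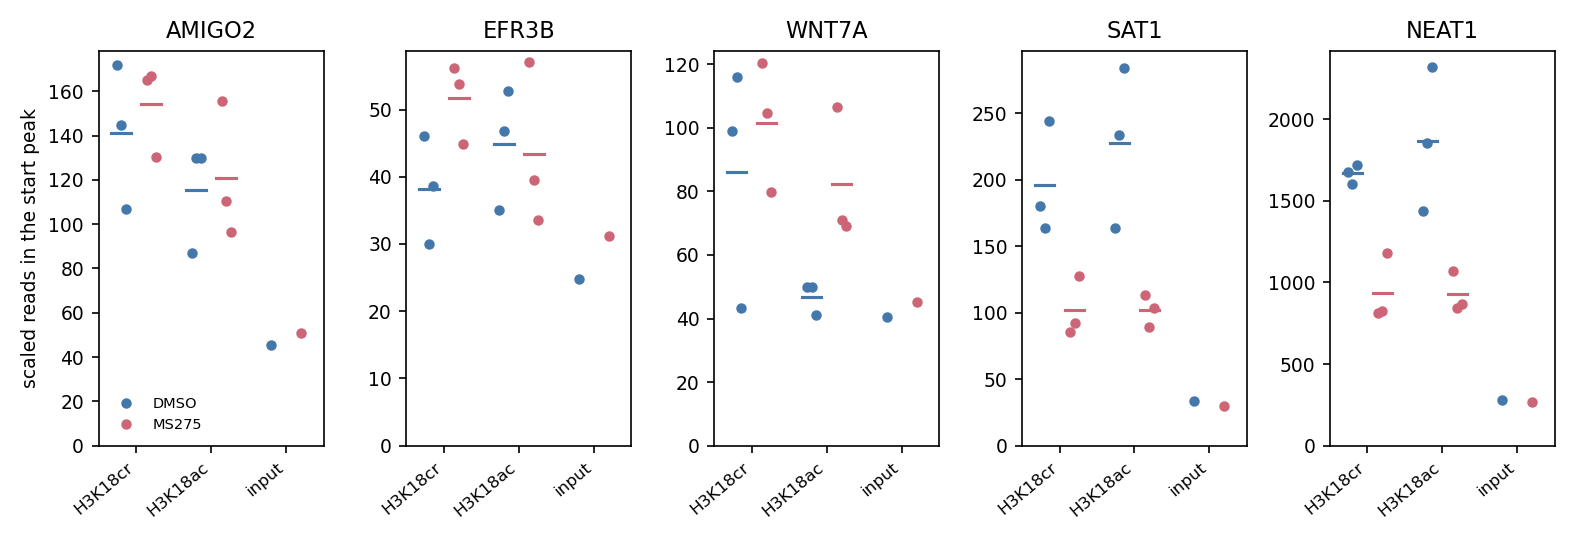
Scaled reads in the start peak of 5 rising genes, for H3K18cr, H3K18ac and input, with DMSO and MS275. Points are libraries, bars are group means, and input has 1 library for each treatment. In AMIGO2 and EFR3B the groups overlap, in WNT7A the 3 MS275 libraries of H3K18ac are above those with DMSO (41.2 to 49.8 reads), and in SAT1 and NEAT1 both marks are lower with MS275.

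No difference between the marks was called. A limma interaction of mark and treatment, adjusted over 40177 peaks, called 0% of all peaks and 0 of the 531 tested at rising genes. At an unadjusted limma p under 0.05 were 12 of these (2.26%), against 1.83% of all. Evenly spread p-values would give a larger share than that, so the lack of calls says little about whether the marks differ.  Over 126 rising genes with a start peak, the mean RNA log2 ratio and the difference at the start had a Pearson r of 0.32 (Spearman 0.34) for H3K18cr and 0.32 (Spearman 0.36) for H3K18ac. These are descriptions across genes that share all libraries, and RNA and marks come from separate libraries. The rule chose the genes on the RNA ratio, and no value over all genes stands beside r. The 40 genes with the largest smallest ratio had medians of 0.03 in both marks at the start, and the remaining 86 had -0.16 and -0.10. This split ranks genes by the ratio that the rule used, so nothing is read from it or from r.

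In mouse colon epithelium, 145 of the 163 symbols were found and 89 (61.4%) were at or above 1 CPM, against 89.8% of 10178 genes past the HCT116 floor. A peak of H3K18cr within 1 kb of the start was present at 74 (51.0%), against 78.2%, and one of H3K4me3, a mark of promoters, at 125 (86.2%), against 91.7%. Among genes at or above 1 CPM in colon, the shares were 74.2% against 85.1% and 94.4% against 94.0%. B3GALT5 was at 1035 ± 86.7 CPM, NEAT1 at 721.9 ± 102.5 and PARM1 at 245.6 ± 7.86 (SD, n = 3), so some rising genes were read often in normal epithelium. PAG1 was at 16.2 ± 3.92, AMIGO2 at 2.05 ± 0.460, EFR3B at 0.903 ± 0.468 and NCAM1 at 0.103 ± 0.179 CPM (SD, n = 3), and CNTNAP2 at 0 in all 3 libraries. Genes were matched by symbol alone, and below 0.1 CPM were 27 of the 145.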

How the data were processed

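RNA-seq of HCT116 cells and of mouse colon epithelium was deposited as read counts per gene, without normalization, which the authors obtained with SEQMONK 1.36.0 after trimming and mapping (the methods name HiSat2 and the mouse genome alone for RNA reads, while the submitters' processing notes name TopHat2 and both GRCh38 and GRCm38 without roles, so which aligner made the human RNA counts is unclear, and whether strand was used is not given in the sources used here, so overlapping genes may share reads). For ChIP-seq the authors mapped reads to GRCh38 or GRCm38 with Bowtie2, removed duplicates and called peaks with MACS in SEQMONK, on 1 list for all libraries of a table. The HCT116 peaks hold log2 values of reads scaled to the largest library, as deposited by the authors. The colon peaks hold a signal per peak, deposited by the authors as scaled read numbers. Within a small fraction of a read, the values of the HCT116 table were whole reads multiplied by 1 factor per library, from 1.00 to 1.65. Peaks without reads were stored as a fraction of a read. In this way reads were recovered. The libraries held 2236551 to 5730094 reads in peaks, and the inputs 1374609 and 1550122. The submitters' processing notes also name Trim Galore 0.4.2, TopHat2 2.0.12 and Bowtie2 2.2.5.

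CPM were computed on the total of all genes. Peaks were tested with limma 3.58.1 on the log2 values where at least 10 scaled reads were present in at least 3 of 6 libraries, as the files turned out to hold logs and not counts. Genes were tested with edgeR 4.0.16 (quasi-likelihood, TMM, filterByExpr), with DESeq2 1.42.0 as an alternative, in R 4.3.3. Calls had an adjusted p under 0.05 (Benjamini-Hochberg over all features tested). The tests were also run on simulated counts with a fixed spread and no replicate effect. At 2-fold, 97% of RNA changes and 94% of H3K18cr changes were recovered, with 15 and 2 false calls. At 1.41-fold, 44% of H3K18cr changes were recovered. As the RNA libraries do hold a replicate effect, these shares do not carry over to the data. Counting was done in Python 3.11.15 with pandas 2.3.3 and numpy 2.4.6. Gene annotation was GENCODE for GRCh38, and older symbols were matched through RefSeq synonyms.

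Replicate numbers come from the labels. In RNA, the departure of a DMSO library from its group mean correlated over genes with that of the MS275 library of the same number at 0.495, 0.336, 0.709 and 0.738 for numbers 1 to 4, so the numbers were treated as pairs and blocked values stand beside the counts of calls. DMSO replicate 2 also correlated with MS275 replicate 4 (0.447) and DMSO replicate 4 with MS275 replicate 2 (0.421).

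The genes, lists and tests were chosen with earlier results of these data known. The genes named are the 4 leading ones, the 12 with the largest smallest-pair ratio, the 8 with the highest mean CPM, those next to the threshold, those on the lists, and at peaks the 5 largest rises and falls of each mark past the test with a mean of at least 50 reads or, where fewer passed, the largest whose groups did not overlap. Some genes that this rule names are not reported here. Other genes were named after their values were seen. The methods state 2 H3K18cr replicates, while the labels give 3, and all 3 were used.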

Additional observations from a re-analysis of the deposited data

Results flagged for a closer look

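In DHRS2, MS275 replicate 3 (28.3 CPM) lay far above the other 3 MS275 libraries (14.4 to 16.2 CPM), by Dixon's criterion for groups of 4. DMSO replicate 3 was also the highest of its group, at 7.40 CPM against 1.65 to 3.84 CPM. In all, 40 groups of 4 were examined over the 20 leading and read-rich genes, and chance alone marks about 1 group in 20.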

How the results depend on the processing

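The rule took 125 genes with 1 CPM added, 148 with TMM library sizes and 175 with no floor, all within 1.5 times of 163. It took 99 with a floor of 5 CPM, 57 with a ratio of at least 1 in each pair, and 211 to 254 without 1 pair, the most without pair 3. For H3K18cr, peaks at these genes called higher numbered 14 with TMM scaling, 0 with DESeq2 and 0 to 3 without 1 replicate number (4 on the authors' scale), and those called lower 9 with TMM scaling and 4 to 83 without 1 number (28). The most lower calls came without replicate 3, 7 without replicate 1 and 4 without replicate 2. Their median log2 difference moved from -0.02 to 0.216 with TMM scaling and lay between -0.105 and -0.015 without 1 number. For H3K18ac, higher calls were 54 with TMM scaling, 1 with DESeq2 and 0 to 4 without 1 number (6 on the authors' scale), and lower calls 17 within 10 kb and 0 to 48 without 1 number (11), the most without replicate 1 and 0 without replicate 2. Same-numbered ChIP libraries deviated together weakly for H3K18cr (correlations of 0.104, 0.074 and 0.225) and with mixed signs for H3K18ac (-0.206, 0.047 and -0.134). They were therefore not blocked in the main fit, while the paper used a paired t-test for these marks over starts. A replicate block gave 6 higher and 35 lower peaks for H3K18cr, 1 higher and 0 lower for H3K18ac, so that the call at SAT1 also ended, and 0 between marks, and NCMAP was then called for H3K18cr. List genes called higher were 27 with the block, 6 with DESeq2, 2 with no filter on low counts and 0 to 1 without 1 number, and 17 were called lower with the block. The causes were not tested. No spike-in is named in the sources used, so the scale of the ChIP libraries limits any direction, and 1 input for each treatment limits enrichment. Many of the 163 genes have few reads with DMSO, which limits the precision of their folds.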
